A study of Homo sapiens with 3 samples.

Results

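Cluster 10 was a group of 802 cells among 20844 cells sorted into 14 expression clusters, a share of 3.85% (95% exact Clopper-Pearson interval 3.59 to 4.12%, counting error only), and 10 of the clusters were larger. Its members were the cells carrying cluster number 10 in the deposited cell table, and the numbering used here is that of the deposited tables. CST1, DUSP4 and POU5F1 served as its markers. Its profile was read from the deposited table of cluster averages, in UMIs per 10000 UMIs of a cell (a UMI is a tagged RNA molecule), and was set beside the averages of the other 13 clusters. Cluster 6, with 1626 cells, had the highest averages of POU5F1, SOX2 and NANOG and was the closest point of reference for the pluripotent state.

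According to the labels, the cells came from 3 human embryonal carcinoma (EC) lines, NCCIT, GCT27 and 2102EP, with 1 droplet library per line in which 3 replicate cultures had been mixed. The lines carried the stable activator component MPHv2. All were infected with lentiviruses (lentiSAMv2) that switch on the endogenous SOX17 gene by CRISPR activation. All then received Activin A at 100 ng/ml, CHIRON (a GSK3 inhibitor that turns on WNT signalling) at 3 µM, FGF2 at 25 ng/ml and heparin at 1 µg/ml, renewed every 48 h, and were harvested on day 8. Every group thus had the same treatment, and untreated EC cells were not analysed here. All media held serum, and for the library titled GCT27 other label fields give the name GCT26.

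The libraries were counted under 3 codes that could not be tied to a line. Material of the study also names the EC line NT2/D1 for its single-cell libraries, so the lines behind the codes are not certain. In cluster 10 the codes held 511, 156 and 135 cells. The largest code made up 63.7% of the cluster (95% exact Clopper-Pearson interval 60.3 to 67.1%), against 40.8% of all cells. The same code held at least 60% of the cells in 4 other clusters, which were clusters 5, 6, 8 and 11, and none of the cells in clusters 12 and 13. Each cluster average pools all libraries, so no spread between cultures exists for any value below, no test was made, and neighbouring values in an order cannot be told apart. Moreover, the clusters were formed on the expression of these genes, so a difference between clusters describes the sorting and is not independent evidence. The part of the library makeup in these differences was not tested, but values against the mean of the 4 clusters rich in the same library are given where they change the picture.

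EC is the stem cell-like subtype of germ cell tumors. Its cells keep the pluripotency network in which the transcription factors POU5F1 (OCT4), SOX2 and NANOG hold each other's genes active, with NODAL and Activin signals through SMAD2 and SMAD3 feeding NANOG. Yolk-sac tumor (YST) is an extraembryonic endoderm-like subtype that can arise from EC, with SOX17 as an endodermal transcription factor and CST1 and DUSP4 among the genes used as early YST markers. CST1 encodes cystatin SN, a secreted inhibitor of cysteine proteases, and DUSP4 encodes a phosphatase that switches off MAP kinases and is itself induced by them.

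Part of the pluripotency network leaves its trace in short regulatory RNAs. MIR302CHG (chromosome 4, 112646476 to 112650051, minus strand, GRCh38, GENCODE 44) is the host transcript of the miR-302 cluster, which includes miR-367, the characteristic microRNAs of human pluripotent cells. MIR302CHG was among the genes that marked cluster 10, so the mature 3p forms encoded within it are shown, taken from RefSeq (GRCh38.p14) in the 5′ to 3′ direction with the seed, bases 2 to 8, in capitals. The mature RNAs themselves were not measured here.
hsa-miR-302a-3p: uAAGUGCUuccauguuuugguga
hsa-miR-302b-3p: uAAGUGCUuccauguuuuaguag
hsa-miR-302c-3p: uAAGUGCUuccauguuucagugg
hsa-miR-302d-3p: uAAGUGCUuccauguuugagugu
hsa-miR-367-3p: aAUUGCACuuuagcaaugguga
The 4 miR-302 forms share the seed AAGUGCU, and miR-367-3p carries its own seed, AUUGCAC.

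The marker genes differed in how far they set cluster 10 apart. They served to name the cluster and are read in the same averages, so their levels are no test of that name. CST1 (chromosome 20, 23747562 to 23751268, minus strand) averaged 2.81 in cluster 10, the highest of the 14 clusters, with 1.17 in cluster 11 as the next value and a range of 0.034 to 1.17 over the other clusters. The deposited marker table lists CST1 as detected in 68.7% of cluster 10 cells and in 26.1% of all other cells. In cluster 11, however, CST1 was listed in 90.8% of the cells although its average was lower, so the order by detection was not the order by average. The depth per cell in each cluster is unknown here, and detection was not corrected for it.

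POU5F1 (chromosome 6, 31164337 to 31180731, minus strand) averaged 2.44 in cluster 10, below the 3.96 of cluster 6 and above the 1.90 of cluster 5 and the 1.78 of cluster 11. It was listed in 78.2% of cluster 10 cells and 41.9% of the others, in 77.1% of cluster 6 cells and in 95.2% of cluster 11 cells. In cluster 5, however, POU5F1 was listed in only 27% of the cells, against 44.8% of all other cells. DUSP4 (chromosome 8, 29333064 to 29350684, minus strand) had its highest average in cluster 10, at 0.326, but cluster 5 reached 0.318 and cluster 11 reached 0.277, so DUSP4 did not set cluster 10 apart. DUSP4 is absent from the 298 genes that the deposited marker table gives for cluster 10. Reads of CST1 and of POU5F1 can be split with near-identical copies (CST2 and CST4 for CST1, pseudogenes for POU5F1), so their levels are uncertain to that extent.

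SOX17, the gene activated by the lentiviruses, had its lowest average in cluster 10. It stood at 0.077, against 0.137 in cluster 9 and 0.184 in cluster 12 as the next lowest values, 4.54 in cluster 6 and 21.0 in cluster 0. Cluster 10 and cluster 6 therefore shared high POU5F1 but lay at different SOX17 levels, with a log2 difference of -4.71 on the log2(average + 0.1) scale used throughout.

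**Figure D1:**
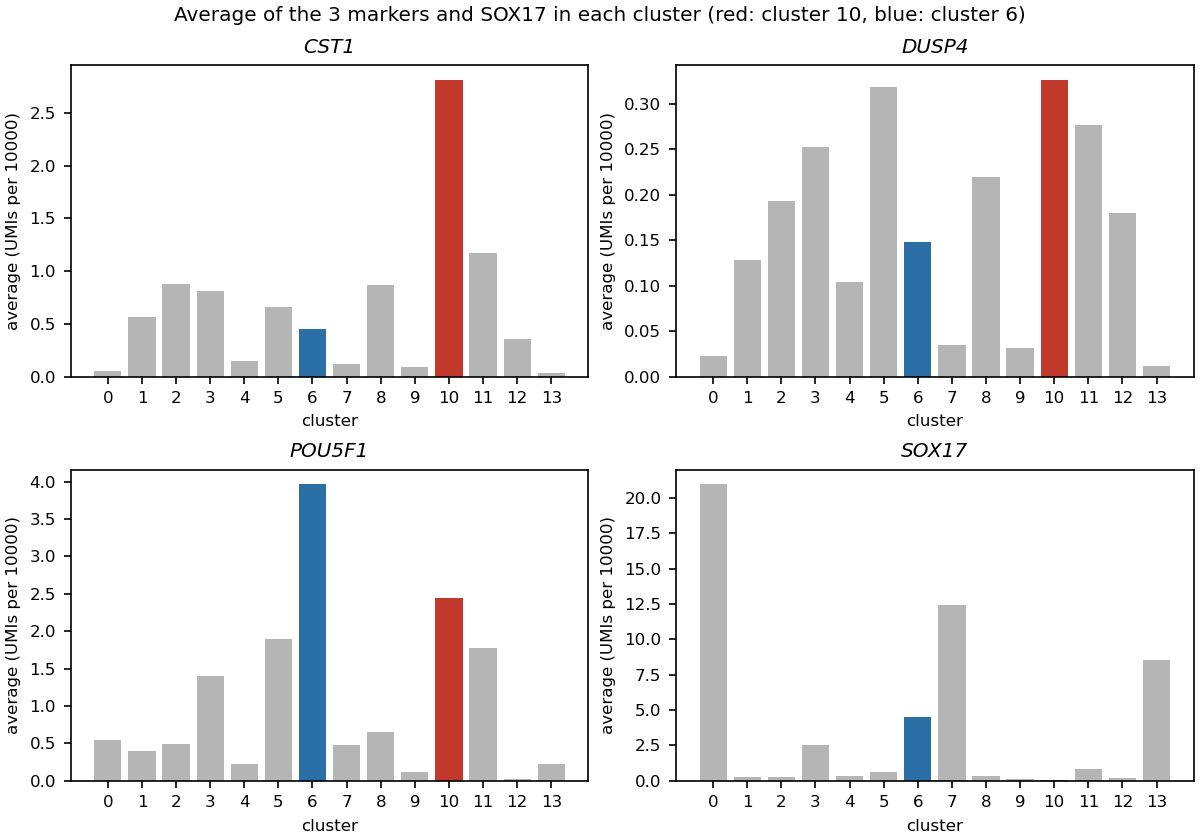
Average expression of CST1, DUSP4, POU5F1 and SOX17 (vertical axes, UMIs per 10000, 1 bar per cluster, no error since averages pool all libraries) in the 14 clusters, with cluster 10 in red and cluster 6 in blue. Cluster 10 has the tallest CST1 bar (2.81), a DUSP4 bar level with that of cluster 5 (0.326 and 0.318), the POU5F1 bar next to that of cluster 6 (2.44 and 3.96) and the shortest SOX17 bar (0.077).

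The whole profile was compared over 12139 genes. Of these 12139 genes with a mean over clusters of at least 0.05, 152 were at least 2-fold higher in cluster 10 than the unweighted mean of the other clusters (1.25% of the genes) and 74 were at least 2-fold lower (0.61%). The median log2 difference over all these genes was -0.03. Cluster 10 held the highest average of all clusters in 362 genes (2.98%) and the lowest in 124 genes (1.02%). Of the 152 genes, 125 had their highest average in cluster 10, and 88 had cluster 6 as the highest of the other clusters, followed by cluster 11 with 18 and cluster 8 with 15. Of the 74 lower genes, 37 had their highest average in cluster 0, 12 in cluster 7, 8 in cluster 9 and 4 in cluster 13. SOX17 was listed as detected in 95.2% of cluster 0 cells, 61.4% of cluster 7 cells and 97.6% of cluster 13 cells. Across genes, the log2 profile of cluster 10 correlated with cluster 3 (Pearson's r = 0.973) and cluster 6 (r = 0.973) about equally, then with cluster 8 (r = 0.970) and cluster 1 (r = 0.968), and least with the 42 cells of cluster 13 (r = 0.824). These are descriptions over 12139 genes, which are not independent replicates and share the libraries and their base composition.

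The genes furthest above the other clusters were a mixture of a synaptic adhesion gene, secreted proteins and long noncoding RNAs. NLGN4X, a neuroligin of the synaptic membrane, led with an average of 5.21 against a mean of 0.709 (log2 difference 2.71), and the highest other value was 1.70 in cluster 8. The X-linked NLGN4X has a close homolog with which reads can be shared. ST6GALNAC5, a sialyltransferase that modifies gangliosides, averaged 1.23 against 0.161 (log2 difference 2.35), and no other cluster exceeded 0.293. SERPINE2, the secreted protease inhibitor also called protease nexin-1, was among the most abundant of them at 13.7, against 5.40 in cluster 6 and at most 5.40 in any other cluster (log2 difference 2.29). GAL, which encodes the neuropeptide galanin, averaged 10.1 against 6.15 in cluster 6 and a mean of 2.30 (log2 difference 2.08). NLGN4X was listed in 79.6% of cluster 10 cells against 35.0% of the others, ST6GALNAC5 in 69.0% against 21.3%, SERPINE2 in 97.9% against 79.3% and GAL in 93.3% against 63.7%.

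Among the remaining leaders STEAP1B averaged 4.72 against at most 2.27 elsewhere, FAM110B 1.88 against at most 0.992, GLIPR1L1 5.45 against at most 3.99, and DEC1 1.92 against at most 1.21. Of the 20 leading genes 7 carry clone-based names. AC003975.1 at 3.43, AP000676.5 at 1.99 and AC131094.1 at 1.32 were the highest ranked of them. AC079352.1, at 0.743, was above 0.343 in no other cluster and was almost missing from cluster 6 at 0.039.

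The 152 genes were chosen against a mean that includes the 4 clusters rich in the same library. Counts against these 4 are therefore partly set by that choice and are no check on library makeup. All 152 genes lay above the mean of these 4 clusters, and 67 lay at least 2-fold above it, against 1.03% of all genes. Against that mean NLGN4X kept a log2 difference of 2.02, ST6GALNAC5 of 2.06, STEAP1B of 1.88, SERPINE2 of 1.74 and CST1 of 1.71, while LINC00458 dropped from 1.96 to 0.69. In numbers of genes, the annotation gave 21 long noncoding RNAs among the 119 of the 152 genes that could be matched to it. With 78.3% of the genes matched, a comparison of gene type or gene length with all genes is void.

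Among the lowest genes, SOX17 was followed by SORBS2, an adaptor protein of the actin cytoskeleton, at 0.171 against a mean of 1.64 and 11.5 in cluster 0 (log2 difference -2.68). SOX5, a transcription factor of the SOXD group, averaged 1.30 against 7.70, with 37.2 in cluster 0 and 8.95 in cluster 6. NENF, which encodes the secreted factor neudesin, averaged 0.360 against 1.81. DKK4, a secreted WNT antagonist, averaged 0.281 against 1.91 but was lower still in cluster 6, at 0.139. EMP1, a membrane protein, averaged 0.084 against 0.687 and was 0.101 in cluster 6. SOX2-OT, the noncoding transcript that overlaps SOX2, averaged 0.129 against 0.744, and HOXA-AS3 averaged 0.058 against 0.539. Thus SOX5, SORBS2, NENF and SOX2-OT were highest in cluster 0, the cluster with the highest SOX17, whereas DKK4 and EMP1 peaked in clusters 8 and 4.

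HOXB9 and HOXB7, transcription factors of anterior-posterior patterning, had their lowest averages in cluster 10, at 0.143 and 0.142 against means of 0.861 and 0.786. The HOX family was looked at after these values were seen. All 25 of the 39 measured HOX genes that passed the filter on low values were below the mean of the other clusters. Of the 25, 8 were at least 2-fold below it (0.61% of all genes were), and the median log2 difference was -0.67. All 25 kept this direction after rescaling of the columns. However, HOXA5, HOXA7, HOXA9, HOXC4, HOXC5, HOXB5 and HOXB6 averaged under 0.05 in cluster 10 and passed only through other clusters. The filter fixed the direction of these genes in advance, and the count of 25 and the median include them. The direction held for 17 of the 25 against cluster 6 (median -0.24) and for 11 of the 25 against the clusters rich in the same library (median 0.01), so low HOX levels were shared with those clusters.

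The core pluripotency genes were higher in cluster 10 than in the mean of the other clusters and lower than in cluster 6. Of the 10 EC and pluripotency genes, 9 passed the filter, all 9 lay above the mean of the other clusters and all 9 lay below cluster 6. POU5F1 and NANOG exceeded the mean at least 2-fold (1.25% of all genes did so), and the median log2 difference of the list was 0.46, against -0.03 over all genes. NANOG (chromosome 12, 7787794 to 7799146, plus strand), a homeodomain factor of the pluripotency core, averaged 0.603 against 1.06 in cluster 6 and a mean of 0.197, and was listed in 52.6% of cluster 10 cells against 16.9% of the others. NANOG too has near-identical pseudogenes. L1TD1, an RNA-binding protein of pluripotent cells, averaged 2.07 against 3.46 in cluster 6, and GDF3, a NODAL-related ligand, 0.262 against 0.572. For POU5F1, NANOG, L1TD1 and GDF3 cluster 10 was the second highest of the 14 clusters, and for the other 5 at least 1 cluster besides cluster 6 was higher.

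The other core genes were less raised. SOX2, the partner of POU5F1, averaged 0.452 in cluster 10, close to the mean of 0.362, and 1.60 in cluster 6, the widest gap of the list (log2 difference -1.62). In other words, SOX2 stood at 28.3% of its cluster 6 level and POU5F1 at 61.5%. The de novo DNA methyltransferase DNMT3B averaged 0.592 against 1.02 in cluster 6, DPPA4 0.710 against 1.30, and the RNA-binding protein LIN28A 1.30 against 1.62. TDGF1, the NODAL co-receptor, averaged 0.70 against 0.787 in cluster 6 and peaked in cluster 8 at 1.18. PRDM14, a repressor of differentiation genes, missed the filter, with 0.074 in cluster 10 and 0.339 in cluster 6. Against the clusters rich in the same library, POU5F1 (log2 difference 0.22) and NANOG (0.31) were only slightly higher and SOX2 was lower (-0.38), with a list median of 0.07.

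Among 20 further pluripotency genes, 18 passed the filter, with a median log2 difference of 0.09 to the other clusters and -0.33 to cluster 6, and none was 2-fold above the others. The surface protein CD9 averaged 5.12, second to 6.85 in cluster 6, and TERF1, a telomere-binding protein, 1.22 against 2.35 in cluster 6. SFRP2, a secreted WNT modulator, averaged 0.889 against 2.0 in cluster 6, and ZIC2, a zinc-finger factor, 1.16 against 0.992. Of 10 genes of naive pluripotency only TBX3 (0.415) and KLF5 (0.176) passed the filter, and neither was 2-fold apart from the others.

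**Figure D2:**
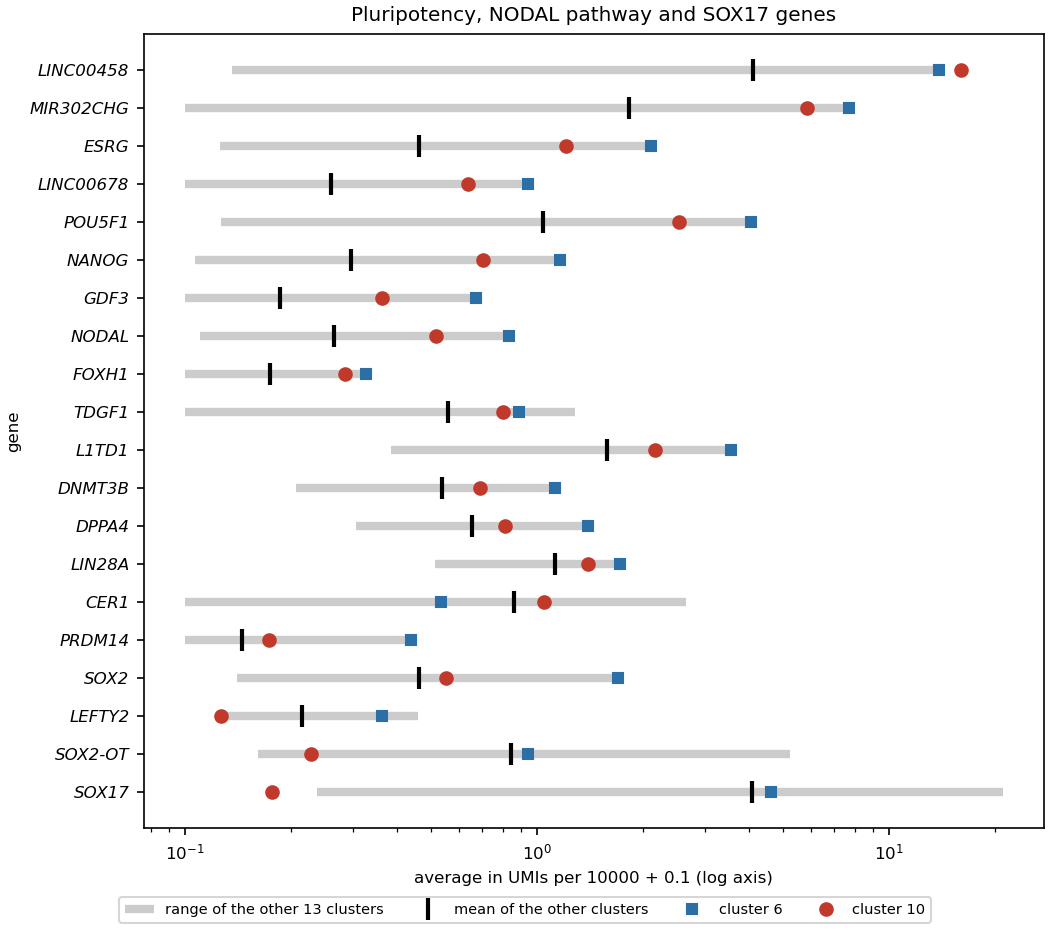
Averages of pluripotency, NODAL pathway and SOX17 genes (rows) as UMIs per 10000 + 0.1 on a log axis: red circles for cluster 10, blue squares for cluster 6, black ticks for the mean and grey bars for the range of the other 13 clusters. Red circles lie right of the black tick and left of the blue square from MIR302CHG to LIN28A, LINC00458 lies beyond cluster 6 (15.9 and 13.8), and SOX17 lies below the range of all other clusters.

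Noncoding RNAs of pluripotent cells showed the contrast with the other clusters more sharply than the protein-coding core. Of the 8 in the list 5 passed the filter, and 4 of these were at least 2-fold above the mean (1.25% of all genes were). The median log2 difference of the 5 was 1.39. LINC00458 (chromosome 13, 53950255 to 54270397, minus strand) averaged 15.9, the highest of the 14 clusters, against 13.8 in cluster 6 and 6.38 in cluster 3. MIR302CHG, whose microRNAs are printed above, averaged 5.77 against 7.62 in cluster 6, 2.48 in cluster 3 and a mean of 1.72, and was listed in 70.6% of cluster 10 cells against 29.3% of the others. ESRG (chromosome 3, 54632122 to 54639857, minus strand), a noncoding RNA of embryonic stem cells, averaged 1.11 against 2.01 in cluster 6, and LINC00678 0.536 against 0.845. The fifth member was SOX2-OT, which was at least 2-fold below the mean. Against the clusters rich in the same library the median of the list was 0.27.

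The NODAL and Activin pathway, which the added Activin A engages, showed no common shift. Of its 26 genes 19 passed the filter and none was 2-fold away from the mean of the others, with a median log2 difference of 0.04, and of -0.10 against cluster 6. The ligands NODAL (0.418) and GDF3 (0.262) and the SMAD partner FOXH1 (0.186) were second to cluster 6, where they averaged 0.734, 0.572 and 0.227. The receptors ACVR1B (0.143), ACVR2A (0.206) and ACVR2B (0.243) and the signal transducers SMAD2 (0.593), SMAD3 (0.179) and SMAD4 (0.380) stayed within 0.32 log2 units of the mean. Among the target and feedback genes the antagonist LEFTY2 averaged 0.026 against 0.264 in cluster 6 (log2 difference -1.52), while CER1, another antagonist, averaged 0.95 against 0.434 and peaked in cluster 8 at 2.55. LEFTY1 (0.043) missed the filter. SKIL, SMAD7 and PMEPA1, which respond to SMAD signals, averaged 1.78, 0.421 and 0.441 against means of 1.76, 0.379 and 0.418.

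Likewise, feedback genes of FGF and MAP kinase signaling did not move as a group. Of 22 genes 21 passed the filter, none was 2-fold from the mean, and the median log2 difference was 0.13, or 0.22 against cluster 6. DUSP4, with the largest positive difference of this list (0.78), stood beside DUSP5 (0.705 against a mean of 0.524), DUSP6 (0.864 against 0.784) and DUSP1 (0.419 against 0.514), which encode related phosphatases. The Sprouty inhibitors SPRY1, SPRY2 and SPRY4 averaged 0.387, 0.452 and 0.801, and the ETS factors ETV1, ETV4 and ETV5 0.299, 0.901 and 0.846. IER3, an immediate response gene, was the only member at least 2-fold above cluster 6, with 3.86 against 1.55. EGR1, the immediate early transcription factor, averaged 0.468 against a mean of 0.921. The remaining members SPRED1, SPRED2, FOS, FOSL1, PHLDA1, EPHA2, CCND1, MYC and IL17RD lay within 0.48 log2 units of the mean, and SPRED3 missed the filter.

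Among YST genes SOX17 had the largest difference from the other clusters, downward, and CST1 had the largest upward difference. Of 14 YST genes 10 passed the filter, 1 was at least 2-fold higher than the mean (CST1) and 2 were at least 2-fold lower (SOX17 and APOA1). Over all genes these shares were 1.25% and 0.61%. APOA1 (0.019) and CXCR4 (0.035) averaged under 0.05 in cluster 10 and passed only through other clusters. The filter fixed their direction against the mean in advance, and the list median includes them. CST1 and DUSP4 had their highest averages in cluster 10, though DUSP4, as given above, did not set cluster 10 apart. At least 2-fold above cluster 6 were 3 genes, CST1, ANKRD1 and GPC3 (1.29% of all genes were). The median log2 difference of the list was -0.61 to the mean of the others and 0.65 to cluster 6. The median to the others depended on the reference and was 0.21 against the median of the other clusters. ANKRD1, a target of YAP, averaged 1.17 against a mean of 1.95 and 0.330 in cluster 6. GPC3, a surface proteoglycan of YST, averaged 1.12 against 1.82 and 0.423, and the ligand BMP2 0.171 against 0.301 and 0.042. GATA6 (0.052), GATA4 (0.077) and CXCR4 (0.035), endodermal factors and a chemokine receptor, were low, and APOA1, an apolipoprotein, averaged 0.019 against 0.208. AFP (0.0047), APOA2 (0.0012), APOB (0.0018) and FOXA2 (0.00065) missed the filter and were near 0 in every cluster.

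Of 13 measured cystatins 3 passed the filter. Beside CST1, the secreted CST3 averaged 1.94, equal to the mean of 1.96, and the intracellular CSTB 2.17 against 2.55. CST2 and CST4, the near-identical neighbours of CST1 on chromosome 20, averaged 0.057 and 0.0029, and CST5 averaged 0.067. The other 7 averaged at most 0.0032. Of the 39 secreted factors that the study links to YST, 29 passed the filter, with a median of -0.15. Among these, 2 were at least 2-fold above the mean (CST1 and P3H2) and 1 was below (APOA1). Over all genes these shares were 1.25% and 0.61%. APOA1 passed the filter only through other clusters, so its direction was fixed in advance. P3H2, a collagen prolyl hydroxylase, averaged 2.70 in cluster 10 and 2.56 in cluster 8.

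Set against cluster 6 alone, 156 genes had averages in cluster 10 that were 2-fold or more higher (1.29%) and 71 genes had averages 2-fold or more lower (0.585%), with a median of 0.01 over all genes. Besides CST1, AC079352.1, AC104667.1 (0.863 against 0.128), ST6GALNAC5, STEAP1B and NLGN4X, the 10 highest differences included a few genes of mesoderm and matrix. MSGN1, the presomitic mesoderm factor mesogenin, averaged 0.527 against 0.016, but cluster 9 reached 4.58. ALDH1A2, which makes retinoic acid, averaged 0.550 against 0.063, COL5A1, a fibrillar collagen chain, 0.723 against 0.125, and the WNT antagonist DKK1 0.688 against 0.115. Each of MSGN1, ALDH1A2, COL5A1 and DKK1 was higher in other clusters than in cluster 10, and cluster 6 held their lowest averages.

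On the lower side of the comparison with cluster 6, SOX17, SOX5, HOXA-AS3, SORBS2, SOX2-OT and HOXB9 recurred. PTPRZ1, a receptor phosphatase, averaged 0.228 against 1.34, FGFBP3, which releases FGFs from the matrix, 0.073 against 0.611, and MGLL, monoacylglycerol lipase, 0.074 against 0.611. PTPRZ1, FGFBP3 and MGLL all peaked in cluster 0. The linker histone gene HIST1H1B, which is transcribed in S phase, averaged 0.068 against 0.634.

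Cell cycle genes differed by phase against the mean of the other clusters, whereas both phase lists lay below cluster 6. All 15 S phase genes lay above the mean of the other clusters (median log2 difference 0.25) and below cluster 6 (median -0.47), but the median was -0.16 against the clusters rich in the same library. The replication factors MCM4, CDC6 and GINS2 averaged 1.08, 0.757 and 0.652 against 1.54, 1.26 and 0.989 in cluster 6. All 15 G2/M genes lay below the mean (median -0.27), although the median was 0.08 against the median of the other clusters, and no gene of either list was 2-fold apart. The mean of the other clusters includes cluster 3, in which the spindle and mitosis genes AURKA, CENPF, CCNB1 and TPX2 averaged 1.77, 6.12, 3.63 and 4.06, against 0.235, 1.03, 0.703 and 0.809 in cluster 10. Against the whole profile of cluster 3, cluster 10 exceeded it 2-fold or more in 127 genes (1.05%) and fell short by 2-fold or more in 129 (1.06%).

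In the glycolysis and hypoxia list SLC2A1 and SLC2A3 had the largest differences. SLC2A1, the ubiquitous glucose transporter, averaged 3.69 in cluster 10, the highest of the 14 clusters, against 2.52 in cluster 4 and a mean of 1.77. SLC2A3, a high-affinity glucose transporter, averaged 14.3 against a mean of 7.38 (log2 difference 0.95) and 5.07 in cluster 6, and only the 180 cells of cluster 12 were higher, at 17.8. Both kept a log2 difference of about the same size against the clusters rich in the same library (1.07 for SLC2A1 and 1.08 for SLC2A3). Over the 14 genes of the list that passed, 1 was at least 2-fold higher (SLC2A1), against 1.25% of all genes, and the median was 0.21. LDHA averaged 10.96 against 11.8 in cluster 6, and PDK1 0.173 against 0.171. The median of the 15 cholesterol synthesis genes was -0.01, with 1 of them at least 2-fold higher than the mean (1.25% of all genes were). FDPS, the farnesyl diphosphate synthase, averaged 1.12 against a mean of 1.55, and MVD, a decarboxylase of the mevalonate pathway, 0.123 against 0.170.

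YAP target genes lay slightly above the others (median log2 difference 0.34, 13 of 13 passing, 11 higher and 2 lower, none 2-fold apart) and above cluster 6 (median 0.58). F3, which encodes tissue factor, had its highest average in cluster 10, at 0.431 against 0.390 in cluster 8, CCN2 averaged 0.386 and CRIM1 1.03, while ANKRD1 was lower than the mean (1.17 against 1.95). Epithelial genes had medians of 0.49 to the others and 0.75 to cluster 6 over the 7 of 13 that passed. The keratin KRT18 averaged 16.1 against 8.28 in cluster 6 and the desmosomal DSP 2.88 against 1.37, but EPCAM, the adhesion molecule of EC cells, averaged 0.429 against 1.37. In the BMP list, with a median of -0.13, the receptor BMPR1A averaged 2.38, level with 2.45 in cluster 6, the ligand BMP4 0.398 against 0.104 and the target MSX1 0.368 against a mean of 0.701. Among FGF ligands and receptors (median 0.05) FGF17, FGF18, FGF2 and FGFR1 averaged 0.214, 0.135, 0.215 and 1.18.

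WNT target genes were low in cluster 10 compared with the mean of the other clusters, but not compared with cluster 6. All 12 that passed lay below the mean of the others, 2 at least 2-fold (DKK4 and DKK1), against 0.61% of all genes. The median log2 difference was -0.55, but only -0.12 against the median of the other clusters. Against cluster 6 the median was 0.42, and against the clusters rich in the same library it was 0.18. AXIN2, a feedback inhibitor of WNT signaling, averaged 0.384 against a mean of 0.835, and APCDD1 0.280 against 0.620. In the mesendoderm and definitive endoderm list 8 of 15 genes passed, and 2 were at least 2-fold lower (SOX17 and LHX1). Over all genes this share was 0.61%. The list median was -0.67, but 0.64 against cluster 6. It was 0.09 against the median of the other clusters and -0.0015 without a filter. LHX1 and MIXL1, factors of the primitive streak and endoderm, averaged 0.559 and 0.403 against means of 1.28 and 0.806 and cluster 6 values of 0.213 and 0.141. In the mesoderm list the median was 0.12, or -0.11 without a filter and -0.10 with a mean of at least 0.5. TBX6, a factor of paraxial mesoderm, averaged 0.018 against 0.055 and had the largest difference, while TBXT, the primitive streak factor brachyury, averaged 0.176 against 0.111, and DLL3 0.398 against 0.310. With an average under 0.05 in cluster 10, TBX6 passed the filter only through other clusters, so its direction was fixed in advance.

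**Figure D3:**
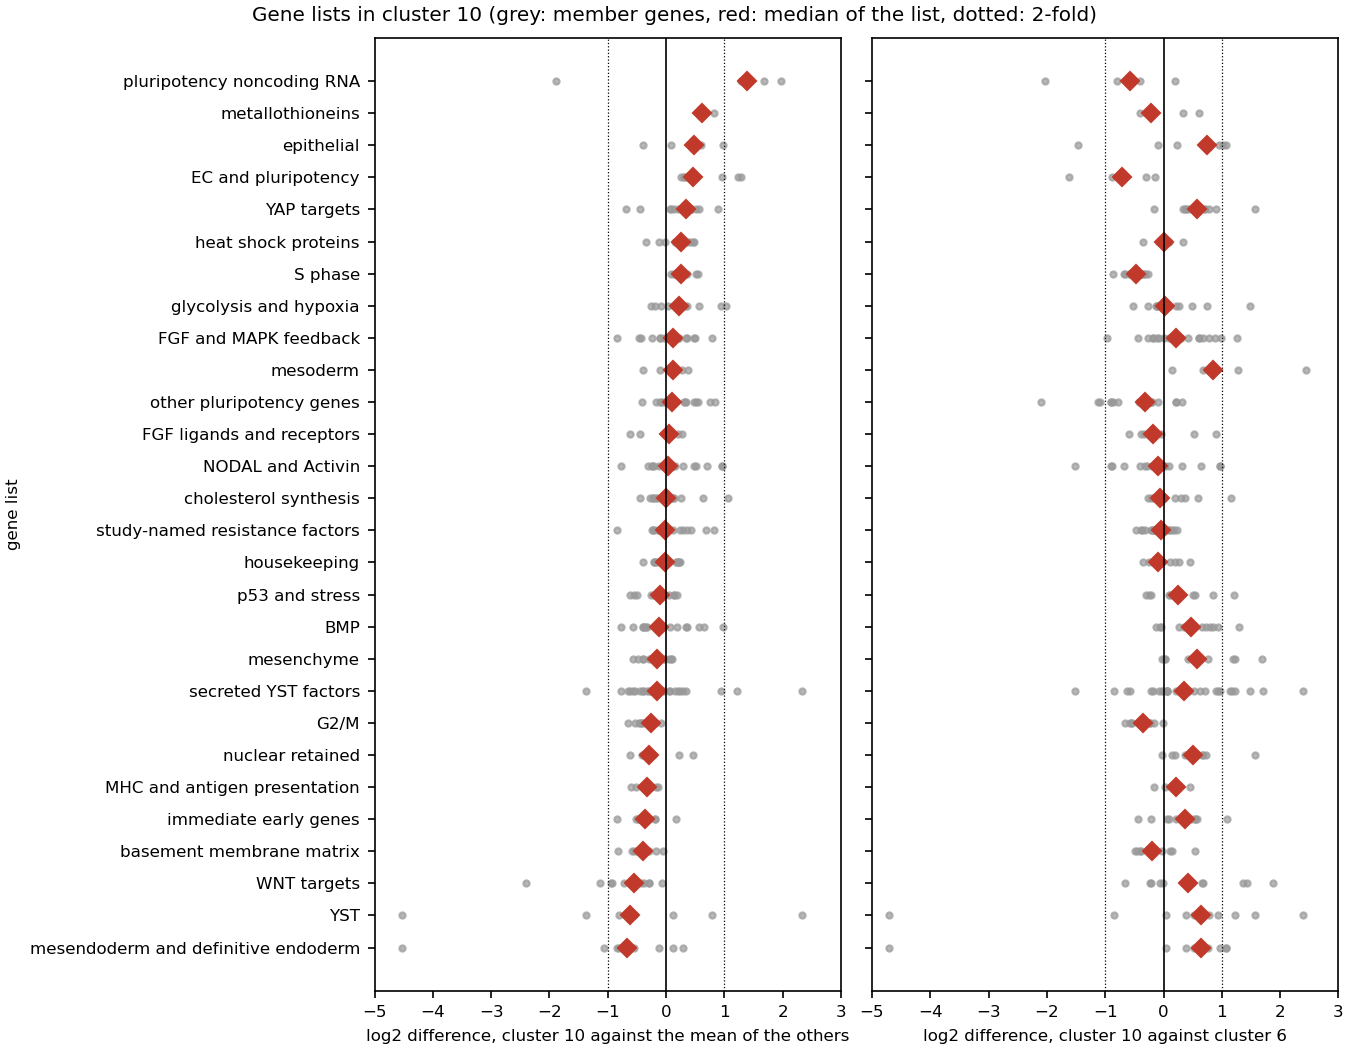
Log2 differences of cluster 10 for the 28 gene lists with at least 5 genes past the filter, against the mean of the other clusters (left) and against cluster 6 (right), with grey points for genes, red diamonds for list medians and dotted lines at 2-fold. The pluripotency lists have medians above 0 on the left (0.46 and 1.39) and below 0 on the right (-0.71 and -0.57), whereas the YST, WNT target and mesendoderm lists have the opposite order, and 1 far point in the YST and mesendoderm lists is SOX17.

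Several defining markers of other lineages were at or near 0, while other members of these lists, some of them broadly expressed, passed the filter. In the endothelial and blood list the summed level of 9 genes was 0.132 in cluster 10, the lowest of all clusters (highest 1.34 in cluster 0), with CDH5 at 0.0064 and PTPRC at 0.00058. The trophoblast and amnion list summed to 0.172 over 12 genes (range over clusters 0.125 to 0.656), and CGA and TFAP2B were at 0. Its factors TFAP2A and GATA3 passed the filter, both below the mean of the other clusters. The seminoma and germ cell list summed to 0.414 (range 0.276 to 1.02), with PRAME at 0.0029 and DDX4 at 0.0013. Its members PDPN, PRDM1 and TFAP2C passed the filter, all below the mean of the other clusters. The serum protein list summed to 2.83 (range 2.02 to 11.3), nearly all of it APOE at 2.76, and APOC3 and SERPINA1 were at 0. The neural list summed to 2.08 (range 1.39 to 4.64), mostly NES (1.11) and TUBB3 (0.845), which are not restricted to neurons, while SOX1 was at 0.00025 and NEUROG2 at 0. Thus the neuroligin transcripts of cluster 10 were not accompanied by the defining factors of neural cells.

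Ribosomal and mitochondrial shares were inside the range of the other clusters. Ribosomal protein genes made up 18.0% of the cluster 10 average (range over clusters 16.2 to 29.8%) and mitochondrial transcripts 3.11% (range 2.47 to 6.10%). The heat shock list had a median of 0.26, the p53 and stress list of -0.11, the immediate early list of -0.36, the metallothionein list of 0.62, the MHC list of -0.32, the nuclear retained list of -0.30, the mesenchyme list of -0.15, the basement membrane list of -0.39 and the housekeeping list of -0.02, and no gene of these lists was 2-fold from the mean. The metallothionein genes MT1F, MT1M, MT1E and MT2A averaged 1.18, 0.920, 2.54 and 17.7, and MT2A was at 32.0 in cluster 11. Against the clusters rich in the same library the medians changed sign to -0.12 for metallothioneins, 0.29 for immediate early genes, 0.19 for p53 and stress, 0.20 for MHC, 0.73 for nuclear retained, 0.25 for mesenchyme, 0.37 for basement membrane and 0.01 for housekeeping genes. Of 24 cisplatin resistance factors that the study named on these samples, and which are therefore no independent choice, none was 2-fold from the mean and the median was -0.01. CFLAR, an inhibitor of caspase 8, had its lowest average in cluster 10 (0.105 against 0.267).

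A promoter sequence is shown for NANOG, which was at least 2-fold above the mean of the other clusters together with POU5F1, whereas SOX2 was above it by a log2 difference of 0.25. The 250 bases before the start of NANOG (RefSeq, GRCh38.p14, chr12:7789152-7789401, plus strand) hold the letters TTTGCATTACAATG, in which an octamer-type and a SOX-type element adjoin, printed in capitals.
NANOG promoter: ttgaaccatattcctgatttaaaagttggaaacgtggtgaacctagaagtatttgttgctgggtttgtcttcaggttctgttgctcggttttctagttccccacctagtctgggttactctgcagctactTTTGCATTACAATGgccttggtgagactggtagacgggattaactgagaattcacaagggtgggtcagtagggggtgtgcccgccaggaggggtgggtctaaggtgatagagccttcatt
The capitals begin 120 bases and end 107 bases before the start. Searched as TTTGCATNACAATG on both strands, the composite occurred in 2 of 35116 promoter windows of this length (0.0057%), and in none of the 8 windows available for 6 of the 20 leading genes. The SOX-type element alone, ACAATG, which overlaps the composite, occurred in 9.29% of all windows and again in none of these 8. So few windows cannot tell an absence from shares this low, so no conclusion is drawn from it. A match describes letters only, and binding was not measured here.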

How the data were processed

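Droplet 3′ single-cell libraries of 3 EC lines were read from tables the authors deposited. Per the submitters' processing notes, reads were handled with Cell Ranger 7.0 and Seurat 4.1.1 on GRCh38; the sources used here do not say whether intronic reads were counted. The deposited table of averages gives, per gene and cluster, the mean over cells of UMIs scaled to 10000 per cell. The deposited cell table gives counts of cells per cluster and library code. From the deposited marker table only the detection shares were used; its fold changes and p-values are the authors' own comparisons and were left out. Doublets were not treated here.

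Averages were compared as log2(average + 0.1) over genes with a mean over clusters of at least 0.05, with 2-fold as the threshold, in Python 3 with pandas. Functions were tested on simulated data. Named genes were CST1, DUSP4, POU5F1, SOX17, the 20 highest and 10 lowest differences from the others, the 10 highest and 10 lowest against cluster 6 (averages of at least 0.5), the members of 5 lists (EC, YST, NODAL, FGF, cystatin) and 4 members of each other list; a few of these genes are not reported here. Genes and lists were chosen with earlier results of these data known. Gene positions are from GENCODE 44.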

Additional observations from a re-analysis of the deposited data

How the results depend on the processing

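No paired analysis was possible because each line had 1 library and the results come from no test. The counts of genes 2-fold higher and lower than the other clusters (152 and 74) became 261 and 287 with a pseudocount of 0.01, 24 and 6 with a pseudocount of 1, and 49 and 30 with a mean of at least 0.5. Against cluster 6 (156 and 71) they became 404 and 200, 7 and 3, and 80 and 26 under the same settings. The lower count was 16 against the median of the other clusters and 39 against the clusters rich in the same library, a reference added after the data were seen. Without a filter, with rescaled columns, with clusters weighted by cells or with at least 500 cells, the counts stayed within 1.5 times. The YST median of 0.65 against cluster 6 became 1.39 with a mean of at least 0.5 and 1.32 with a pseudocount of 0.01, and its median of -0.61 against the others became 0.21 against their median. The NODAL median of -0.10 against cluster 6 became 0.80 with a mean of at least 0.5. With a pseudocount of 1 the nearest profile was cluster 6 (r = 0.982) instead of cluster 3. Of 484 alternative list medians, 453 moved by less than 1.5 times and 41 changed sign. The causes were not tested. With 802 cells, no counts per cell and no replicate averages, precision is unknown, most of all for genes averaging under 0.1.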
